A study of Homo sapiens with 6 samples.

Results

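The genes described here encode the ligands, receptors and modulators of Wnt signalling. They were taken from a table of read counts for 58825 human genes. Chosen were all protein-coding genes whose Ensembl identifier carries, in GENCODE version 44, a symbol of the WNT, Frizzled (FZD), DKK or SFRP families. A list of named genes was added, covering co-receptors, receptor turnover, the β-catenin destruction complex with its feedback genes, and the TCF/LEF factors. The rule used gene names and no measured value. It found 54 genes, and all 54 were in the count table.

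RNA came from HGC-27, an established human gastric cancer cell line, cultured in RPMI-1640 with fetal bovine serum for all libraries. By their labels, 3 libraries were of GC0643 overexpression and 3 of a vector control. According to the Methods, cells stably expressing GC0643 were made by retroviral infection and selected with puromycin, and whether either line was derived from 1 clone is not stated. GC0643 is a gene that the study predicted in assembled sequence that did not align to the reference genome. It was not analysed here, so its level cannot check the labels. Whether the replicates came from separate cultures is also not stated for these libraries, so every p-value measures the spread between these libraries, which may be technical.

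Total counts ranged from 20376722 to 24069166 per library. Levels within a gene are given as CPM, the count scaled to a common library total by TMM. Levels of different genes are compared only as RPKM, which is CPM divided by the summed GENCODE exon length in kilobases. A count of 0 allows a level of up to 0.125 to 0.148 CPM, depending on the library, and this limit covers counting error only. Fold changes are log2 ratios of GC0643 overexpression over vector control from edgeR's quasi-likelihood test. Benjamini-Hochberg adjustment ran over the 19528 genes that passed a filter on low counts.

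Vector control replicate 2 was closer to 2 of the GC0643 overexpression libraries than to either of the other vector control libraries. The chi-square per degree of freedom of its counts was 4.62 against GC0643 overexpression replicate 2 and 5.00 against GC0643 overexpression replicate 3, but 12.8 and 45.4 against vector control replicates 1 and 3. Vector control replicate 3 was the farthest library by this measure, at 18.5 against vector control replicate 1 and 45.4 to 60.6 against the other libraries. The libraries also differed by GC content. The Spearman correlation between a library's deviation from the mean of all libraries and the GC content of the transcript, over all genes tested, was -0.48, -0.28 and -0.52 for replicates 1 to 3 of GC0643 overexpression. It was 0.54, -0.25 and 0.58 for replicates 1 to 3 of the vector control. Whether vector control replicate 2 carries an exchanged label or differs technically cannot be told apart from these data. Results for the genes at an unadjusted p under 0.05 are therefore also given without it and after a correction for GC content. Where leaving out any other library changed such a call, that is stated as well.

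The labelled cell type was set against its markers. Of 12 genes of gastric and other epithelium, 2 exceeded a mean of 1 CPM (KRT8 and MUC1). EPCAM had 4 to 9 counts and CDH1 1 to 9 counts per library, KRT19, TFF1 and MUC5AC had at most 1, and TFF2 and GKN1 had 0. The summed level of the epithelial list was 14.8 to 18.9 CPM in GC0643 overexpression and 17.0 to 20.4 CPM in vector control. All 9 genes listed for fibroblasts exceeded 1 CPM, with sums of 4351 to 5130 CPM in GC0643 overexpression and 4309 to 4958 CPM in vector control, and 6 of 7 genes of the mesenchymal state did so. COL1A1 and COL3A1 made up most of the fibroblast sums. LUM, DCN and COL1A2 were higher in every GC0643 overexpression library than in any vector control library, at log2 fold changes of 0.78, 0.47 and 0.46 (edgeR adjusted p = 0.260 for each), and LUM was past the thresholds of the study given below. Such a separation with higher values was found for 11.8% of all genes tested. The GC content of the transcript was 34.9% for LUM, 38.2% for DCN and 54.5% for COL1A2. PDGFRA, at 0.53 (edgeR adjusted p = 0.260), overlapped between the groups. The rest of the list overlapped too, with PDGFRB at -0.36, ACTA2 at -0.17, THY1 at -0.16, COL1A1 at -0.08 and COL3A1 at 0.02 (edgeR adjusted p of at least 0.302). The sums of the fibroblast list overlapped between the groups, and its part in the results was not tested. None of 6 endothelial genes exceeded 1 CPM. Of 5 erythroid genes, 2 exceeded it (the near-identical HBA1 and HBA2), with sums of 15.5 to 21.3 CPM in GC0643 overexpression and 27.0 to 32.9 CPM in vector control, while HBB was at 0 in all libraries. These sums did not overlap between the groups for the erythroid list, and their part in the results was not tested. HBA1 and HBA2 were at -0.59 and -0.63 (edgeR adjusted p = 0.260 for each), with transcripts of 64.5% and 64.4% GC. Both were past the thresholds of the study and did not overlap. Of all genes tested, 0.871% were lower past those thresholds and 10.5% lower without overlap. Because RNA was measured in bulk, fewer cells expressing a gene and less RNA per cell cannot be told apart.

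Wnt proteins are secreted lipid-modified ligands that bind Frizzled receptors together with LRP5 or LRP6. Without them, a complex built on AXIN and APC marks β-catenin for degradation, and with them β-catenin accumulates and acts with TCF/LEF factors on target genes, among them its own inhibitors. In the stomach, Wnt signals maintain the stem and progenitor cells of the glands. Other Wnt proteins signal without β-catenin, through receptors such as ROR2, to cell shape and movement.

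Promoters of 3 genes are shown. Among the 45 promoter windows searched, that of DKK1 alone held CTTTGAA or CTTTGAT. SFRP4 had the smallest p of the genes tested here, and WNT3A was the ligand past the thresholds of the study. The stretches shown are the 250 bases before the RefSeq start site in GRCh38.p14, written 5′ to 3′ on the strand of the gene. DKK1 lies at chr10:52314031-52314280 on the plus strand, SFRP4 at chr7:37916818-37917067 on the minus strand and WNT3A at chr1:228006748-228006997 on the plus strand. Capitals mark the motif CTTTGAA, a core sequence bound by TCF/LEF factors.
DKK1: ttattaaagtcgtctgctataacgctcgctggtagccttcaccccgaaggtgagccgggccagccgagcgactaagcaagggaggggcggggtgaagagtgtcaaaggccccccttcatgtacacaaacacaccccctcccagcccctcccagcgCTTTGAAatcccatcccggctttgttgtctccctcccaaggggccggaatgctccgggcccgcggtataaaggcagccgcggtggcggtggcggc
SFRP4: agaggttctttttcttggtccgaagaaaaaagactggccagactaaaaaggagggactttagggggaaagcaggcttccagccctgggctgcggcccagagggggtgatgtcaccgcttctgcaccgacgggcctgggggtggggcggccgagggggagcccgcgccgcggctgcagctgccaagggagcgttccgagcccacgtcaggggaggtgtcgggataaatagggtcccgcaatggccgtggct
WNT3A: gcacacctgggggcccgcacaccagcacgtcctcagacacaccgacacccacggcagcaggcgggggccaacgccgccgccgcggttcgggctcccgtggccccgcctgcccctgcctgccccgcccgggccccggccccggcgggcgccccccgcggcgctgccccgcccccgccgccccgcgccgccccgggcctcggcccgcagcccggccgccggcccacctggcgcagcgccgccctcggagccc

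RefSeq gave 45 promoter windows for 37 of the 54 genes, each of 300 bases with 50 bases after the start. Searched on both strands for CTTTGAA or CTTTGAT, 1 window held a match, or 2.22%, against 2409 of 35116 windows of all genes, or 6.86%. The match was in DKK1, beginning at position -95 from the start. Other forms of the TCF/LEF motif were not searched, and AXIN2 and NKD1 were among the genes without a window. The stretches shown had GC contents of 62.8% for DKK1, 64.4% for SFRP4 and 86% for WNT3A.

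HGC-27 cells carried transcripts for every step of the pathway, with a few genes supplying most of each role. Of the 54 genes, 13 had a mean level over 10 RPKM across the 6 libraries and 18 lay between 1 and 10 RPKM. A further 10 were tested at lower levels, 10 did not pass the filter on low counts, and WNT1, WNT8A and FZD10 had 0 counts in all 6 libraries. WNT11 had 49.0% of the summed RPKM of the ligands and SFRP4 had 84% of that of the secreted antagonists. Among the Frizzled receptors, FZD1, FZD2 and FZD7 had 28.1%, 25.9% and 25.8%.

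**Figure D1:**
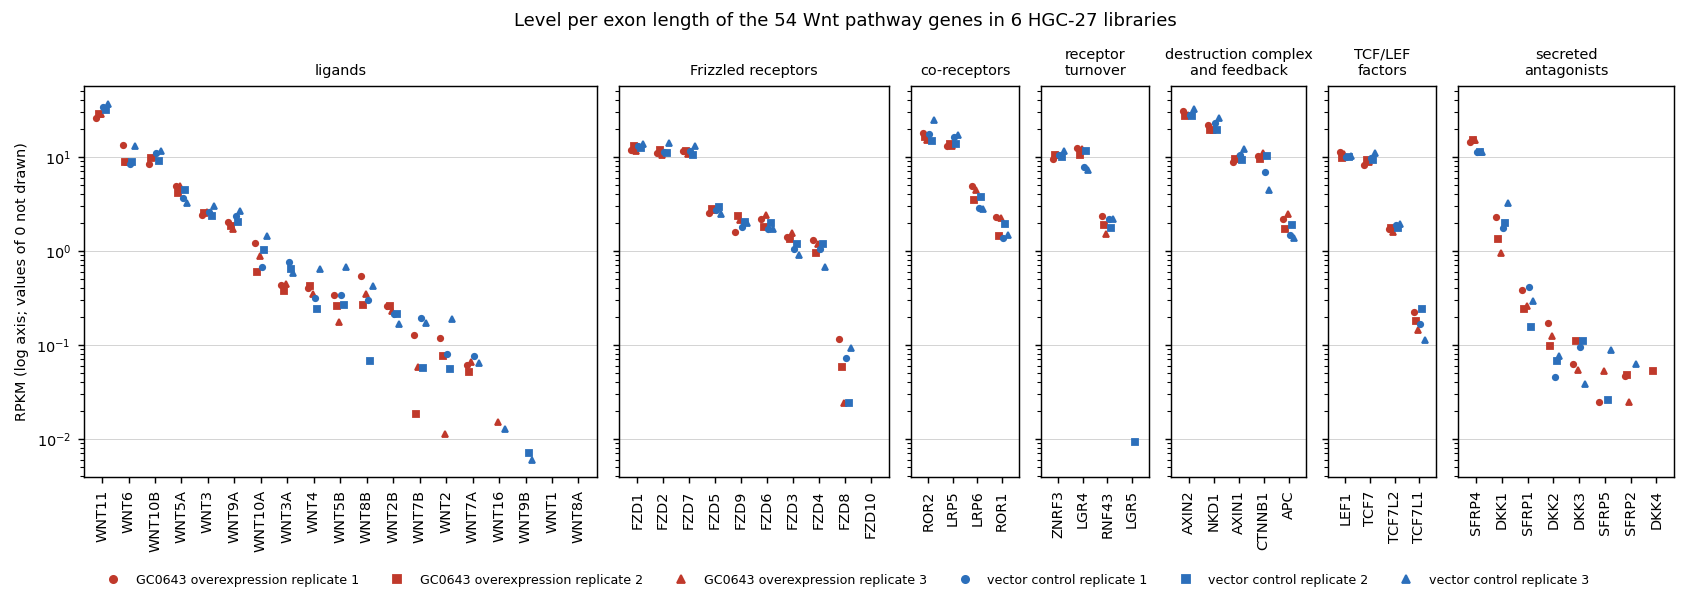
Level of each of the 54 genes in RPKM (log axis) in the 6 libraries, ordered within each role by mean level, red for GC0643 overexpression and blue for vector control, with marker shapes for replicates and values of 0 not drawn. WNT11 leads the ligands at a mean of 30.9 RPKM and SFRP4 the secreted antagonists at 13.1 RPKM, and the 2 groups lie close together at most genes.

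No Wnt pathway gene passed the adjusted p in the comparison of GC0643 overexpression with vector control. At an unadjusted p under 0.05, SFRP4, FZD3, LRP6, APC, LGR4 and CTNNB1 had higher counts in GC0643 overexpression and WNT11 and WNT3A lower counts. WNT3A was past the thresholds of the study, a fold change over 1.5 with an unadjusted p under 0.05, but not with DESeq2, the replicate block, GC correction, or without GC0643 overexpression replicate 2 or 3 or vector control replicate 1. The fold changes of these 8 genes lay between -0.65 and 0.51.

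By the adjusted p of edgeR's quasi-likelihood test, 0 of the 41 genes tested were called, as were 0% of all 19528 genes. DESeq2, limma voom and the likelihood ratio test of edgeR also called 0 of the 41. The 6 genes higher at an unadjusted p under 0.05 compare with 13.1% of all genes tested, and the 2 lower with 5.26%. Past the study's thresholds were 0 genes higher and 1 lower, against 1.6% and 0.871% of all genes. The groups did not overlap for 3 genes that were higher (SFRP4, FZD3 and WNT2B) and 4 that were lower (WNT11, WNT3A, LRP5 and TCF7), against 11.8% and 10.5% of all genes. For 41 genes tested, all these counts are near the shares of all genes. Log2 fold changes were positive for 18 of the 41 genes and negative for 23, with a median of -0.06, beside 0.02 for all genes tested. Without vector control replicate 2, 43 of the genes were tested and 8 had an adjusted p under 0.05, against 19.1% of all genes. In that fit 8 were higher and 10 lower at the unadjusted threshold, against 22.8% and 14.2% of all genes. The library left out was singled out because its counts lay close to GC0643 overexpression libraries. Wider differences without it follow in part from that choice, so the adjusted p-values of that fit are no independent check. Without vector control replicate 3, 4 of 42 were higher and 1 lower, against 7.71% and 2.66%.

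**Figure D2:**
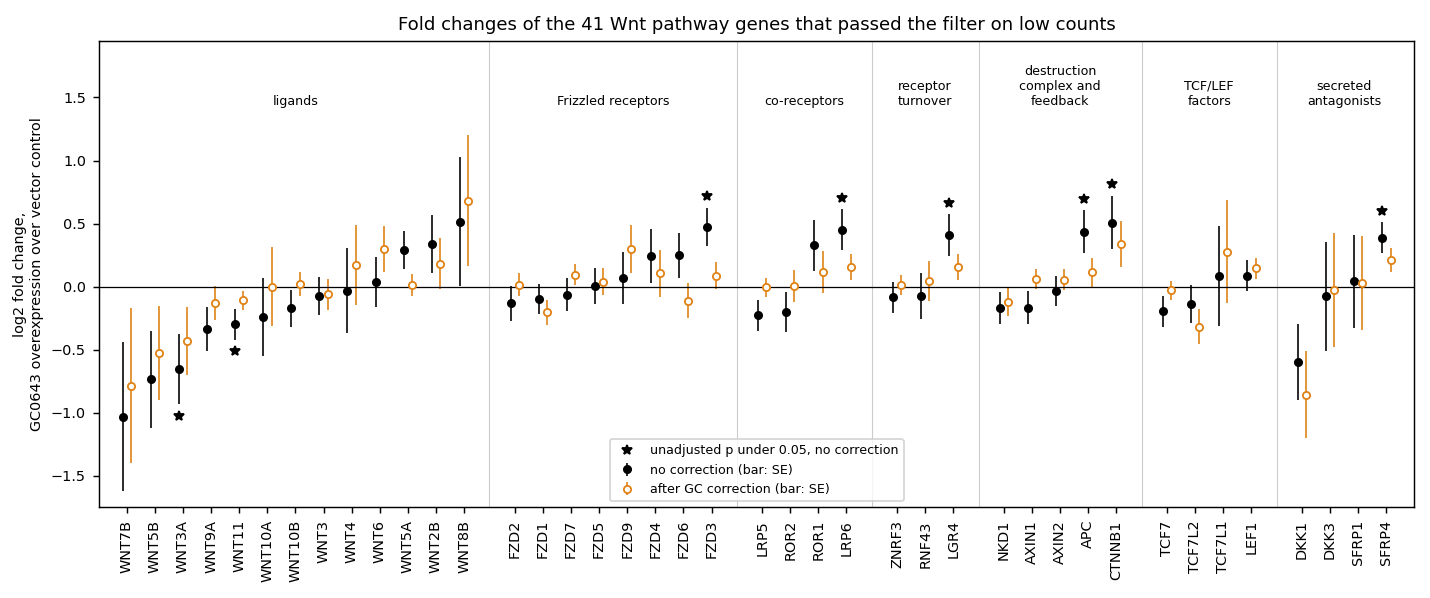
Log2 fold change of GC0643 overexpression over vector control for the 41 genes tested, by role, with no correction (black) and after correction for GC content (orange), bars showing the standard error and stars an unadjusted p under 0.05 with no correction. The 8 starred genes lie between -0.65 and 0.51 with no correction and between -0.43 and 0.34 after it.

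The ligand transcripts were mainly those of WNT11, WNT6 and WNT10B. In the following, values stand in the order of replicates 1, 2 and 3. WNT11, a ligand best known for signalling without β-catenin, had 61.8, 68.0 and 67.0 CPM in GC0643 overexpression and 80.4, 74.3 and 87.5 CPM in vector control. Every GC0643 overexpression library was below every vector control library. The log2 fold change was -0.30 ± 0.12 (SE; edgeR quasi-likelihood, adjusted p = 0.260). Without vector control replicate 2 it was -0.35 (adjusted p = 0.0441), and after GC correction it was -0.11 (adjusted p = 0.802). Over the fits that leave out 1 library it lay between -0.35 and -0.25. The unadjusted p of WNT11 by edgeR was not under 0.05 without replicate 1 or 3 of either group. A lncRNA on the opposite strand overlaps 8.6% of the exon length of WNT11, and since the strand setting of the counting is not stated, its reads cannot be told apart from those of WNT11.

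WNT6 had 22.9, 15.2 and 15.1 CPM in GC0643 overexpression and 14.5, 15.1 and 22.2 CPM in vector control. GC0643 overexpression replicate 1 and vector control replicate 3 were its high libraries, and its log2 fold change was 0.04 ± 0.20 (edgeR adjusted p = 0.930). WNT10B, an activator of the β-catenin branch, had 21.7, 25.1 and 25.9 CPM in GC0643 overexpression and 28.3, 23.4 and 30.1 CPM in vector control. These groups overlapped, at a log2 fold change of -0.17 ± 0.15 (edgeR adjusted p = 0.492). Per length, WNT6 at 10.2 ± 2.28 RPKM (SD, n = 6) and WNT10B at 9.91 ± 1.19 RPKM (SD, n = 6) did not differ beyond their spread, while WNT11 at 30.9 ± 4.01 RPKM (SD, n = 6) was above both in every library.

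WNT3A, a ligand that activates the β-catenin branch, had low counts, between 24 and 46 per library. They amounted to 1.31, 1.13 and 1.33 CPM in GC0643 overexpression and 2.27, 1.94 and 1.75 CPM in vector control. The groups did not overlap, and vector control replicate 1 was the highest library. Its log2 fold change was -0.65 ± 0.28 (SE; edgeR quasi-likelihood, adjusted p = 0.262). It was -0.43 after GC correction (adjusted p = 0.788) and -0.67 without vector control replicate 2 (adjusted p = 0.133). Its unadjusted p by edgeR was not under 0.05 without GC0643 overexpression replicate 2 or 3 or vector control replicate 1. WNT3A also stands in a gene table that the study made from these libraries, so its direction there is not independent evidence.

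The other ligands were lower in level. WNT5A, the main ligand of signalling without β-catenin, had a mean of 4.21 RPKM, WNT3 of 2.58 RPKM and WNT9A of 2.101 RPKM. The log2 fold change of WNT5A was 0.29 ± 0.15 (edgeR adjusted p = 0.295), and without vector control replicate 2 it was 0.43 (adjusted p = 0.0399). After GC correction it was 0.02 (adjusted p = 0.982), and 0.04 when that library was left out as well (adjusted p = 0.916). WNT10A, WNT4, WNT5B, WNT8B, WNT2B and WNT7B were tested at means under 1 RPKM, and their log2 fold changes ranged from -1.03 in WNT7B to 0.51 in WNT8B, with standard errors of 0.59 and 0.51. ST7L on the opposite strand overlaps 21.5% of the exon length of WNT2B. WNT2 and WNT7A did not pass the filter, with at most 20 and 7 counts, and WNT16 and WNT9B had at most 1 count in any library. Fold changes were above 0 on the log2 scale for 4 of the 13 ligands tested and below 0 for 9. The summed RPKM of the 19 ligands was 60.6, 58.1 and 58.8 in GC0643 overexpression and 64.8, 60.6 and 74.6 in vector control, and vector control replicate 2 had the same rounded sum as GC0643 overexpression replicate 1.

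The Frizzled transcripts, which encode the membrane receptors for Wnt proteins, were led by FZD1, FZD2 and FZD7. Their means were 12.5 ± 0.765, 11.6 ± 1.30 and 11.5 ± 0.939 RPKM (SD, n = 6). Within libraries, FZD1 was above FZD7 in every one and above FZD2 in all but vector control replicate 3. FZD1 had 81.0, 88.8 and 80.4 CPM in GC0643 overexpression and 88.9, 85.2 and 94.2 CPM in vector control. FZD2 had 41.6, 44.3 and 39.1 CPM in GC0643 overexpression and 42.4, 41.4 and 53.1 CPM in vector control. FZD7 had 52.8, 53.2 and 48.6 CPM in GC0643 overexpression and 53.2, 48.2 and 60.1 CPM in vector control. The groups overlapped for all 3 receptors. Their log2 fold changes were -0.10 ± 0.12, -0.13 ± 0.14 and -0.06 ± 0.13 (SE; edgeR adjusted p = 0.620, 0.578 and 0.788).

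FZD3, a Frizzled best known from planar cell polarity and axon growth, had 19.4, 18.6 and 21.5 CPM in GC0643 overexpression and 14.3, 16.1 and 12.4 CPM in vector control. All GC0643 overexpression libraries were above all vector control libraries, and vector control replicate 2 was the closest of them. The log2 fold change was 0.47 ± 0.15 (SE; edgeR quasi-likelihood, adjusted p = 0.260). Without vector control replicate 2 it was 0.57 (adjusted p = 0.0192), and after GC correction 0.09 (adjusted p = 0.880). FZD3 had the lowest GC content of the 41 genes tested, 34.9%, and a mean level of 1.24 RPKM. FZD5, FZD9, FZD6 and FZD4 lay between 1.06 and 2.70 RPKM with log2 fold changes from 0.00 to 0.25, and FZD8 had at most 10 counts in any library.

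Among the co-receptors, LRP5 and LRP6 are the partners of Frizzled in the β-catenin branch, and ROR1 and ROR2 are receptor tyrosine kinases that bind WNT5A. ROR2 had 106, 95.2 and 89.6 CPM in GC0643 overexpression and 103, 87.1 and 144 CPM in vector control. These groups overlapped, and vector control replicate 3 was the high library. ROR2 had a log2 fold change of -0.20 ± 0.16 (edgeR adjusted p = 0.466). LRP5 had 81.1, 84.7 and 81.2 CPM in GC0643 overexpression and 99.3, 84.8 and 105 CPM in vector control, so the groups were separated by the gap between 84.7 CPM and 84.8 CPM in the 2 libraries numbered 2. LRP5 had a log2 fold change of -0.23 ± 0.12 (edgeR adjusted p = 0.307). It was -0.31 without vector control replicate 2 (edgeR adjusted p = 0.0605) and -0.01 after GC correction (edgeR adjusted p = 0.991).

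LRP6 ran the other way, with 51.1, 36.2 and 46.5 CPM in GC0643 overexpression and 29.7, 39.0 and 29.2 CPM in vector control. The groups overlapped because vector control replicate 2 was above GC0643 overexpression replicate 2. Its log2 fold change was 0.45 ± 0.16 (SE; edgeR quasi-likelihood, adjusted p = 0.260), 0.60 without vector control replicate 2 (adjusted p = 0.0175) and 0.16 after GC correction (adjusted p = 0.791). The unadjusted p of LRP6 by edgeR was not under 0.05 without replicate 1 of either group. Per length, LRP5 at 14.5 ± 1.65 RPKM was above LRP6 at 3.72 ± 0.856 RPKM (SD, n = 6) in every library. The GC content of the transcript was 62.9% for LRP5 and 40.9% for LRP6. ROR1 had a mean of 1.79 RPKM and a log2 fold change of 0.33 ± 0.20 (edgeR adjusted p = 0.351).

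Receptor turnover is set by ZNRF3 and RNF43, ubiquitin ligases that remove Frizzled from the membrane, and by LGR4 and LGR5, the R-spondin receptors that restrain them. ZNRF3 had 65.7, 73.2 and 72.6 CPM in GC0643 overexpression and 73.9, 70.2 and 79.96 CPM in vector control. LGR4 had 79.6, 65.8 and 77.5 CPM in GC0643 overexpression and 49.7, 72.9 and 45.6 CPM in vector control. Vector control replicates 1 and 3 were below all GC0643 overexpression libraries for LGR4, and vector control replicate 2 was among them. ZNRF3 had a log2 fold change of -0.08 ± 0.12 (edgeR adjusted p = 0.695). That of LGR4 was 0.41 ± 0.17 (SE; edgeR quasi-likelihood, adjusted p = 0.260), 0.64 without vector control replicate 2 (adjusted p = 0.0105) and 0.16 after GC correction (adjusted p = 0.791). Over the fits that leave out 1 library it lay between 0.27 and 0.64. The unadjusted p of LGR4 by edgeR was not under 0.05 without replicate 1 or 3 of either group.

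LGR5, a stem cell marker of the gastric antrum and intestine, had 1 count in vector control replicate 2 and 0 in the other libraries. LGR4 and ZNRF3 thus had 44.9% and 46.3% of the summed RPKM of this role. RNF43 had 14.8, 12.0 and 9.62 CPM in GC0643 overexpression and 13.8, 10.97 and 13.6 CPM in vector control, with overlapping groups and a log2 fold change of -0.08 ± 0.18 (edgeR adjusted p = 0.821). Its level is uncertain, because 68.4% of its exon length is shared on the same strand with the gene ENSG00000285897. That gene had 974 to 1343 counts per library where RNF43 had 195 to 328.

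After WNT11, AXIN2 and NKD1 had the highest levels per length of the 54 genes, at 28.9 and 21.3 RPKM on the summed exon length. On the length of the longest transcript, AXIN2 was at 35.2, ROR2 at 23.9, NKD1 at 21.7 and CTNNB1 at 21.1 RPKM. AXIN2, a scaffold of the complex and a standard target of β-catenin, had 158, 143 and 144 CPM in GC0643 overexpression and 146, 143 and 167 CPM in vector control. NKD1, a target that inhibits the pathway at Dishevelled, had 382, 331 and 332 CPM in GC0643 overexpression and 397, 331 and 446 CPM in vector control. AXIN1, the constitutive scaffold, had 65.6, 72.0 and 74.9 CPM in GC0643 overexpression and 78.8, 69.2 and 90.4 CPM in vector control. The groups overlapped for these 3 genes, and vector control replicate 3 was the highest library in each. Log2 fold changes were -0.03 ± 0.12 for AXIN2, -0.17 ± 0.13 for NKD1 and -0.17 ± 0.13 for AXIN1 (SE; edgeR adjusted p = 0.878, 0.441 and 0.458). AXIN2 shares 25.3% of its exon length with the gene ENSG00000266076 on the same strand, which had 1058 to 1491 counts per library beside 2926 to 4014 for AXIN2.

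CTNNB1, which encodes β-catenin, had 121, 113 and 129 CPM in GC0643 overexpression and 81.2, 121 and 52.5 CPM in vector control. The vector control libraries spread from 52.5 to 121 CPM, and vector control replicate 2 lay within the range of GC0643 overexpression. The log2 fold change was 0.51 ± 0.21 (SE; edgeR quasi-likelihood, adjusted p = 0.261). It was 0.86 without vector control replicate 2 (adjusted p = 0.0102) and 0.25 without vector control replicate 3 (adjusted p = 0.499). After GC correction it was 0.34 ± 0.18 (edgeR adjusted p = 0.777), and with the correction and vector control replicate 2 left out it was 0.59 (edgeR adjusted p = 0.211). With no correction, the unadjusted p by edgeR was not under 0.05 without replicate 1 of either group or vector control replicate 3. With no filter on low counts, CTNNB1 alone of the 51 genes then tested had an adjusted p under 0.05, of 0.0430, against 0.618% of all genes.

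APC, the tumour suppressor that holds the complex together, had 29.8, 23.1 and 33.9 CPM in GC0643 overexpression and 19.95, 25.6 and 18.7 CPM in vector control. The groups overlapped through the libraries numbered 2. Its log2 fold change was 0.44 ± 0.17 (SE; edgeR quasi-likelihood, adjusted p = 0.260), 0.58 without vector control replicate 2 (adjusted p = 0.0249) and 0.12 after GC correction (adjusted p = 0.857). The unadjusted p of APC by edgeR was not under 0.05 without replicate 1 of either group or GC0643 overexpression replicate 3. APC shares 1.69% of its exon length with the gene ENSG00000258864 on the same strand.

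The TCF/LEF factors, the DNA-binding partners of β-catenin, were mainly LEF1 and TCF7, with 47.7% and 43.3% of the summed RPKM of this role. Their order turned on the length of the longest transcript, with TCF7 at 17.7 and LEF1 at 15.4 RPKM. LEF1 had 60.5, 52.6 and 57.5 CPM in GC0643 overexpression and 53.4, 52.9 and 54.4 CPM in vector control. TCF7 had 82.5, 92.4 and 89.98 CPM in GC0643 overexpression and 98.5, 92.8 and 112 CPM in vector control. TCF7L2 had 11.5, 11.9 and 10.7 CPM in GC0643 overexpression and 12.6, 11.8 and 13.1 CPM in vector control. TCF7 did not overlap between the groups, the libraries numbered 2 being closest at 92.4 and 92.8 CPM, while LEF1 and TCF7L2 did. Log2 fold changes were 0.09 ± 0.12 for LEF1, -0.20 ± 0.12 for TCF7 and -0.14 ± 0.15 for TCF7L2 (SE; edgeR adjusted p = 0.685, 0.363 and 0.594). After GC correction TCF7 stood at -0.03 (edgeR adjusted p = 0.951) and TCF7L2 at -0.32 (edgeR adjusted p = 0.773). Without vector control replicate 2 TCF7 stood at -0.25 (edgeR adjusted p = 0.130). TCF7L1 had 12 to 22 counts per library and a mean of 0.178 RPKM.

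The secreted antagonists comprise the SFRP proteins, which bind Wnt ligands, and the DKK proteins, most of which block LRP5 and LRP6. SFRP4 had 49.97, 53.1 and 52.7 CPM in GC0643 overexpression and 39.9, 39.3 and 39.8 CPM in vector control. Its groups did not overlap, with means of 51.9 ± 1.70 and 39.6 ± 0.337 CPM (SD, n = 3), and an SD from 3 libraries is itself uncertain. Such a separation with higher values was found for 11.8% of all genes tested. Vector control replicate 2 lay with the other vector control libraries. The log2 fold change was 0.39 ± 0.12 (SE; edgeR quasi-likelihood, adjusted p = 0.260), and over the fits that leave out 1 library it stayed between 0.36 and 0.42, with an adjusted p of 0.0354 without vector control replicate 2 and of at least 0.335 without any other. After GC correction it was 0.21 ± 0.09 (edgeR adjusted p = 0.773), and 0.14 when vector control replicate 2 was left out as well (edgeR adjusted p = 0.593).

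DKK1, an LRP inhibitor and target of β-catenin whose promoter held the only motif match, had 5.04, 2.97 and 2.12 CPM in GC0643 overexpression and 3.84, 4.37 and 7.11 CPM in vector control. The groups overlapped through GC0643 overexpression replicate 1. Its log2 fold change was -0.60 ± 0.30 (edgeR adjusted p = 0.286). After GC correction it was -0.86 (edgeR adjusted p = 0.773), and when 1 library was left out it lay between -1.01 and -0.28. DKK1 was past the thresholds of the study with DESeq2, DESeq2's size factors, no filter, the replicate block and each fit with GC correction. It was also past them without replicate 1 of either group, but not in the main fit or the remaining fits. SFRP1 had 1.82, 1.13 and 1.23 CPM in GC0643 overexpression and 1.97, 0.728 and 1.37 CPM in vector control, with a log2 fold change of 0.04 ± 0.37 (edgeR adjusted p = 0.957). DKK3 had 11 to 28 counts per library, and 47.5% of its exon length is overlapped by USP47 on the opposite strand. The lncRNA PRKG1-AS1 overlaps 10.2% of that of DKK1, also on the opposite strand, and DKK1 had 43 to 171 counts per library. DKK2 had 9 to 16 counts in GC0643 overexpression and 4 to 8 in vector control and did not pass the filter, and SFRP5, SFRP2 and DKK4 had at most 4, 3 and 1 counts.

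**Figure D3:**
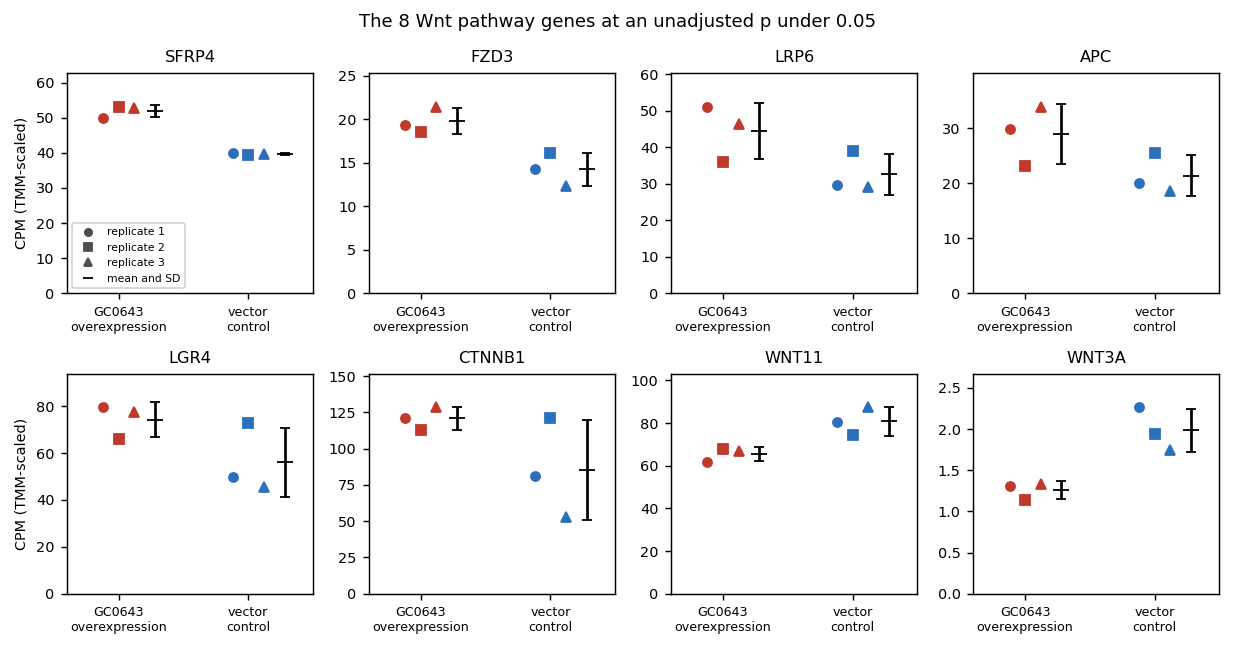
CPM in each library of the 8 genes at an unadjusted p under 0.05, with the mean and SD (n = 3) of each group. SFRP4, FZD3, WNT11 and WNT3A do not overlap between the groups, and vector control replicate 2 (blue square) lies within the range of GC0643 overexpression for LRP6, APC, LGR4 and CTNNB1.

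The 6 higher genes shared a low GC content and the 2 lower genes a high one. The transcripts of SFRP4, FZD3, LRP6, APC, LGR4 and CTNNB1 had a GC content of 34.9% to 45.6%, and those of WNT11 and WNT3A of 59.3% and 66.8%. Of the 15 tested genes under 50% GC, 12 had a positive log2 fold change, and of the 26 at 50% or more, 6 did. Over the 41 genes the Spearman correlation of log2 fold change with GC content was -0.62, and over 19401 genes it was -0.67. All points share the same 6 libraries, so this is a description. After the correction 1 gene was higher (SFRP4) and 2 were lower (DKK1 and TCF7L2) at an unadjusted p under 0.05, against 2.86% and 3.52% of all genes. With the correction and without vector control replicate 2, CTNNB1 and LGR4 were higher and DKK1, FZD1 and TCF7L2 lower among 43 tested, with adjusted p-values of at least 0.211 and against 6.01% and 5.99% of all genes. The part of GC content in the differences was not tested beyond these fits.

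**Figure D4:**
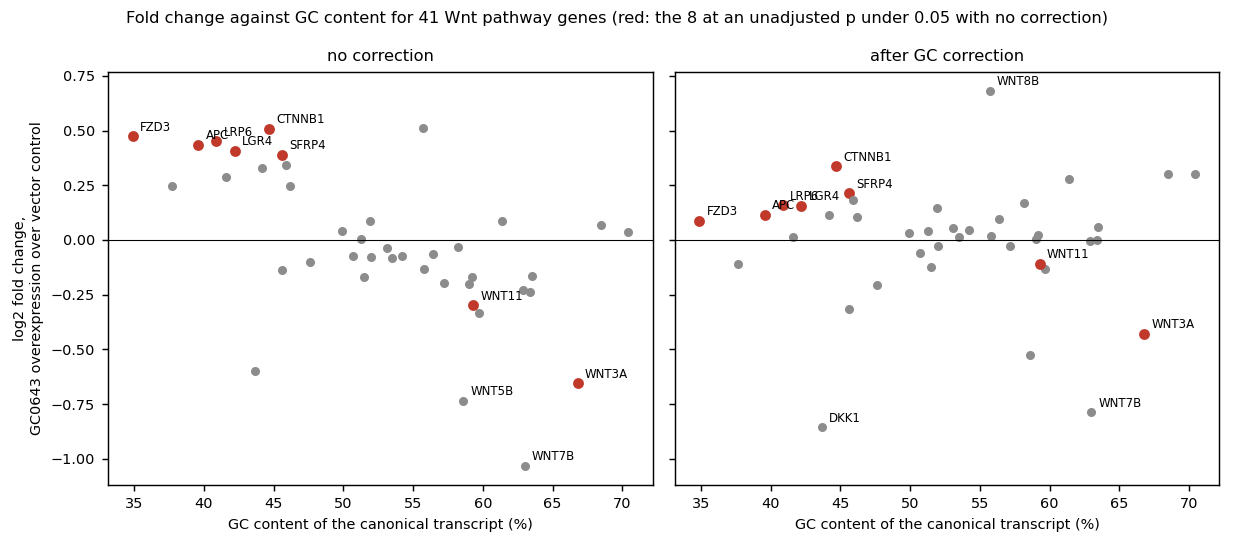
Log2 fold change of GC0643 overexpression over vector control against the GC content of the canonical transcript for the 41 genes tested, with no correction (left) and after GC correction (right), the 8 genes at an unadjusted p under 0.05 with no correction in red. FZD3, at 34.9% GC, moves from 0.47 to 0.09, while CTNNB1 moves from 0.51 to 0.34.

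Further genes of the pathway, 111 in number, were listed by step, and of the 99 tested 0 were past the adjusted p of edgeR's quasi-likelihood test. There were 18 with an unadjusted p under 0.05 and higher counts and 7 with lower counts, against 13.1% and 5.26% of all genes tested, and their median log2 fold change was -0.00. The step lists below are small, their counts are read against the same shares, and no list was tested as a whole. Of the 14 genes tested for Wnt secretion and extracellular modulation, 1 was higher, SOSTDC1, an extracellular antagonist (0.55 ± 0.21), and 1 lower, KREMEN2, a DKK receptor (-0.36 ± 0.15). Of 25 genes of signal transduction below the receptor, 6 were higher and 3 lower. They include BTRC, which recognises phosphorylated β-catenin (0.46 ± 0.15), PPP2CA, a phosphatase subunit (0.38 ± 0.13), CSNK1G2, a casein kinase (-0.30 ± 0.12), and DVL1, a Dishevelled scaffold (-0.29 ± 0.13). Among 17 nuclear partners of β-catenin 2 were higher, CDC73 (0.49 ± 0.15) and CHD8 (0.31 ± 0.14), and 2 lower, TLE5 (-0.29 ± 0.11) and BCL9L (-0.29 ± 0.12). Of 25 genes of planar cell polarity and β-catenin-independent signalling 6 were higher and 0 lower, the smallest p being those of DAAM1, a formin bound by Dishevelled (0.60 ± 0.20), and the JNK kinase MAPK8 (0.48 ± 0.16). These fold changes are without GC correction. The higher genes named in this paragraph had transcripts of 34.3% to 49.3% GC, and the lower ones of 61.2% to 68.7%. After GC correction 4 genes of all the lists were higher and 1 lower, against 2.86% and 3.52% of all genes.

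Of 18 direct β-catenin target genes tested, 3 were higher and 1 lower by the same threshold, near those shares. TCF4, which encodes an E-protein and not the TCF/LEF factor TCF7L2, had a log2 fold change of 0.51 ± 0.14, and TNFRSF19, a receptor of the TNF family, of 0.61 ± 0.19. The GC content of their transcripts was 39.2% and 42.9%. JUN, an AP-1 subunit, had 28.7, 16.3 and 18.9 CPM in GC0643 overexpression and 27.5, 19.4 and 73.8 CPM in vector control. Vector control replicate 3 alone was high for JUN. Its log2 fold change was -0.92 ± 0.36 with all libraries and -0.15 without that library (edgeR adjusted p = 0.260 and 0.732). Of the 99 further pathway genes tested, 3 were past the thresholds of the study, DAAM1 and TNFRSF19 higher and JUN lower. Among all genes tested, 1.6% were past them with higher and 0.871% with lower counts. MYC and CCND1, which drive proliferation, had log2 fold changes of -0.03 ± 0.12 and 0.04 ± 0.13 (edgeR adjusted p = 0.907 and 0.857).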

How the data were processed

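Gene counts from 6 libraries of HGC-27 cells were used, 3 labelled GC0643 overexpression and 3 vector control. The counts were deposited by the authors as raw read counts per Ensembl gene. According to the submitters' processing notes, reads were handled with Trimmomatic 0.32, HISAT2 2.1.0 and featureCounts 2.0.0 on GRCh38. The strand and overlap options of the counting are not given for these libraries in the sources used here, which bears on genes that share exons.

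Of 58825 genes, 58472 were matched to GENCODE 44, which gave symbols, exon lengths and the GC content of the canonical transcript. The software was edgeR 4.0.16, DESeq2 1.42.0 and limma 3.58.1 under R 4.3.3, with annotation and plots in Python 3.11.15 (matplotlib 3.10.9). Genes were filtered by filterByExpr, scaled by TMM and fitted with the group as the only term, using edgeR's quasi-likelihood test over all genes. The biological coefficient of variation was 14.8%, and the code was tested on simulated counts. Total counts of 20376722 to 24069166 set the counting error.

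The genes and lists were chosen with earlier results of these data known, so no p-value was adjusted over a list. Values are given for the 3 genes of each role with the highest RPKM, those at an unadjusted p under 0.05, and WNT3A. In the pathway lists up to 2 genes with the smallest p in each direction are named. Other genes are given by level, count or range. 1 marker list is not reported here. The fold changes of WNT5A, WNT7B, WNT8B, ROR1, MYC and CCND1, and the name of WNT2B, were added after their values were seen. So were the fold changes of the fibroblast genes, and those of LRP5 and TCF7 after GC correction and without vector control replicate 2.

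Alternatives were a likelihood ratio test, DESeq2, limma voom, no filter, a CPM over 1 in 3 libraries, protein-coding genes alone, the size factors of DESeq2, plain library size, the replicate number as a block, a loess offset (span 0.3, prior count 1) on GC content or on length of the transcript, the block with GC correction, the GC correction without vector control replicate 2, each library left out, and RPKM on the longest transcript. Replicates of the same number were checked for pairing, and the correlations of their deviations from the group means were -0.21, -0.03 and -0.31.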

Additional observations from a re-analysis of the deposited data

How the results depend on the processing

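The median log2 fold change of the Wnt genes lay between -0.14 and 0.04 under all settings. The count past the adjusted p was 0 under the main settings, 1 with no filter on low counts and 0 under the other tests, scalings, filters and corrections; leaving out 1 library gave 0 to 8, the 8 arising without vector control replicate 2, when 19.1% of all genes passed. The count past the thresholds of the study, 1 at first, was 2 with limma voom, 2 with DESeq2's size factors, 4 with no filter, 2 with GC correction and vector control replicate 2 left out, and 0 to 6 with 1 library left out. WNT3A was not the gene counted with DESeq2 or GC correction, which was DKK1. Genes higher at an unadjusted p under 0.05 went from 6 to 1 with GC correction, 2 with length correction, 2 with GC correction and vector control replicate 2 left out, and 2 to 8 with 1 library left out. Genes lower went from 2 to 5 with no filter, 5 with length correction and 0 to 10 with 1 library left out. For the other pathway genes, the 18 higher became 4, 9 and 6 under GC correction, length correction and GC correction without vector control replicate 2, and 6 to 27 with 1 library left out. The 7 lower became 1 under GC correction, 15 under length correction and 0 to 25 with 1 library left out. The cause of these changes was not tested.

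No same-numbered pair of libraries correlated above 0.1, and only a shared number links them. Because the deviations of the libraries also went with GC content, these correlations cannot show whether a pair shared a culture or preparation. With a replicate block the Wnt genes past the study's thresholds numbered 3 and the other pathway genes lower numbered 1. Under the block with GC correction, 1 Wnt gene was higher, 1 lower, and 2 and 1 of the other pathway genes. All genes past the study's thresholds numbered 482 (312 higher, 170 lower), and 936 with no filter, 257 among protein-coding genes, 297 with GC correction (121 higher, 176 lower), 241 with block and GC correction and 2141 without vector control replicate 2. The split was 249 higher and 232 lower with DESeq2's size factors and 251 and 223 with length correction.

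Some log2 fold changes turned sign. Among the genes below they were as large in the main fit as -0.20 for ROR2 and -0.17 for both AXIN1 and WNT10B. Under GC correction, the block with GC correction, and GC correction without vector control replicate 2, AXIN2 was 0.057, 0.056 and 0.048, AXIN1 0.059, 0.059 and 0.039, FZD2 0.017, 0.020 and 0.0056, FZD7 0.096, 0.096 and 0.078, and ZNRF3 0.014, 0.014 and 0.0089. Under the first and second of these, RNF43 was 0.045 and 0.026, ROR2 0.0035 and 0.014, and WNT10B 0.022 and 0.021. SFRP1 was -0.078 with length correction and -0.27 with GC correction without vector control replicate 2. On the length of the longest transcript CTNNB1 was at 21.1 RPKM, TCF7 at 17.7, LEF1 at 15.4, TCF7L2 at 2.93 and WNT3 at 4.08, against 8.76, 9.38, 10.3, 1.77 and 2.58 RPKM in that order of genes on the summed exon length. CTNNB1 was then above AXIN1 (11.9 RPKM), TCF7 above LEF1, LGR4 (12.4 RPKM) above ZNRF3 (10.6 RPKM), and WNT10B (11.5 RPKM) above WNT6 (10.2 RPKM). With 1 library left out, values ran from -0.082 to 0.031 for AXIN2, from -0.14 to 0.016 for FZD7, from -0.24 to 0.068 for RNF43, from -0.35 to 0.021 for ROR2, from -0.25 to 0.39 for SFRP1 and from -0.19 to 0.25 for WNT6.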
